A study of Mus musculus with 18 samples.

Results

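The 10 genes described here are transcription factors, cadherins and an intermediate filament that are commonly measured to follow epithelial-mesenchymal transition (EMT). They were taken by symbol from the 57126 genes counted in 18 mouse mammary tumors. The rule holds no measured value, but the genes were chosen with earlier results of these data known. The transcription factors are Snai1, Snai2, Twist1, Twist2, Zeb1, Zeb2 and Prrx1, the cadherins are Cdh1 (E-cadherin) and Cdh2 (N-cadherin), and the filament is Vim (vimentin). The tumors arose in F1 mice of BALB/c and C57BL6/J parents after adenovirus carrying Cre-recombinase was injected into the mammary duct. Cre removed wild-type Trp53 sequence in ductal epithelium, which left the missense mutant R172H over a null allele (MaP R172H/-, 7 tumors of 7 mice), the missense mutant R245W over a null allele (MaP R245W/-, 5 tumors of 5 mice) or no p53 (MaP -/-, 6 tumors of 4 mice). Stroma and immune cells kept wild-type Trp53, and portions of the tumors were frozen once mice had reached tumor burden. In 3 of the MaP R172H/- and 3 of the MaP R245W/- tumors the mice also carried the reporter allele Rosa26LSL-TdTomato/+. By the histology the study assigned, 7 tumors of 5 mice were metaplastic (5 sarcomatoid carcinomas and 2 poorly differentiated carcinomas). Another 9 tumors were nonmetaplastic (8 adenocarcinomas and the sarcoma JM1126). Tumors JM779-T1 and JM836-T1 were left out of the histology groups, because the tumor named in their titles and the tumor marked as sequenced for the same mice differ in histology.

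EMT is a change of state in which epithelial cells loosen their junctions and gain features of mesenchymal cells. E-cadherin, the main adhesion molecule of epithelial adherens junctions, is the classical gene that is lost, while N-cadherin and vimentin are the classical genes that are gained. The zinc finger factors of the SNAI and ZEB families bind E-box letters in DNA and can repress Cdh1, the TWIST factors are basic helix-loop-helix proteins that act on the same program, and Prrx1 is a homeobox factor of mesenchyme. Most of these genes are also used by ordinary fibroblasts, endothelial cells or pericytes, so whole tumor RNA holds the transcripts of tumor cells and stroma together. In metaplastic breast cancer, part of the tumor takes a spindled or other non-glandular form.

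ZEB factors and microRNAs of the miR-200 family are known to repress each other, so the sequences of this pairing are shown first. The 5 mature microRNAs fall into 2 groups by seed, the stretch from base 2 to base 8 that is printed in capitals (RefSeq, GRCm38.p6).
mmu-miR-200a-3p: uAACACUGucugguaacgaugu
mmu-miR-141-3p: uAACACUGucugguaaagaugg
mmu-miR-200b-3p: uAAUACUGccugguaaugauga
mmu-miR-200c-3p: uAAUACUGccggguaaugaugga
mmu-miR-429-3p: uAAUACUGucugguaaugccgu
The first pair shares the seed AACACUG and the other 3 share AAUACUG, which differ at a single base. The letters that pair with them are CAGTGTT and CAGTATT. In the transcript of Zeb2 used for its length below, the 1453 bases of 3′ UTR hold CAGTATT 5 times and CAGTGTT 3 times. Of 2709 3′ UTRs of like length, Zeb2 among them, 14.4% hold CAGTATT at least once. The share that holds it at least as often as Zeb2 is 0.0369%, which is Zeb2 itself. For CAGTGTT these shares are 18.2% and 0.332%. The 2404 bases of 3′ UTR of Zeb1 hold CAGTATT 5 times and CAGTGTT 4 times, against 24.0% and 30.9% of 2715 3′ UTRs of like length with any. The 4 Zeb2 sites that follow, on the minus strand of GRCm39, are those nearest to the stop codon for each seed, with the matching letters in capitals and the bases before them in lower case.
chr2:44878186-44878207: cgcactaccatacatCAGTATT
chr2:44878121-44878142: cgcactacagtgcatCAGTATT
chr2:44878370-44878391: tgcaaaaattttgtaCAGTGTT
chr2:44877838-44877859: agtgccatccttgtaCAGTGTT
A match of letters is a description of the transcript and does not show that a microRNA acts on it in these tumors. The E-box letters CAGGTG were searched on both strands in the 250 bases before the start of each gene, in the RefSeq windows of GRCm38.p6. Windows were found for 6 of the 10 genes (Snai1, Twist1, Twist2, Zeb2, Prrx1 and Vim). Only the window of Snai1 held the letters, against 17.2% of 32851 windows of all genes. The match is shown in capitals, as CACCTG, on the plus strand.
chr2:167537945-167538194: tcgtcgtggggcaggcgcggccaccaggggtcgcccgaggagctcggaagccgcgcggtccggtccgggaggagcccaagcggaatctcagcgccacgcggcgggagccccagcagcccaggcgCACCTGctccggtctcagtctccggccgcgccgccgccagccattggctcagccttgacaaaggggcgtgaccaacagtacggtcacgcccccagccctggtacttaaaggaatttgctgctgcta

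Depth per library was 23113578 to 37365062 counts, and every member had at least 4 counts in every tumor. Levels are given as CPM, the usual depth-scaled counts, with library sizes normalised by TMM. All MaP R172H/- libraries were read on a HiSeq instrument and all others on a NovaSeq, so genotype and instrument cannot be told apart in the comparisons with MaP R172H/- tumors. All MaP R172H/- tumors were also nonmetaplastic. By the molecular subtype the study assigned, they were luminal B or HER2-enriched, while every MaP R245W/- and MaP -/- tumor was triple-negative. Genotype and subtype therefore cannot be told apart in the comparisons with MaP R172H/- tumors either. Trp53 itself was at 9.30 to 20.8 CPM in MaP -/- tumors, at 11.2 to 48.3 CPM in MaP R172H/- tumors and at 9.06 to 59.1 CPM in MaP R245W/- tumors, and these ranges overlap. Mammary epithelial markers (Epcam, Krt8, Krt18, Krt5, Krt14 and Trp63, summed) had a count in every tumor, except Krt5 in JM1233, but ranged from 144.6 CPM in JM779-T1, 325.2 CPM in YZ7 and 477.0 CPM in JM1233 to 6793 CPM in YZ11. Tumors JM779-T1, JM1126, YZ7, JM663-T2 and YZ11 stood apart from their groups in at least 1 member, and fits without single tumors are given beside the results that they move most.

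Vimentin and E-cadherin were the most abundant of the 10 transcripts. Per kilobase of transcript, the median level over the 18 tumors was 245.5 CPM for Vim, 94.1 CPM for Cdh1 and 24.1 CPM for Zeb2. Prrx1 followed at 8.92, Twist1 at 8.38, Zeb1 at 6.02 and Snai1 at 4.13 CPM per kilobase. The lowest medians were those of Cdh2 at 3.0, Snai2 at 0.943 and Twist2 at 0.407 CPM per kilobase. Each neighbouring pair in this order overlapped in range. Vim lay above Cdh1 in 16 of 18 tumors and Cdh1 above Zeb2 in 14, whereas Prrx1 lay above Twist1 in 9 of 18 and Twist1 above Zeb1 in 10 of 18. The order of Prrx1, Twist1 and Zeb1 was therefore not separated from the spread between tumors. The members also varied unequally: the highest tumor exceeded the lowest 211.3-fold in CPM for Twist2, 118.8-fold for Cdh1 and 101.2-fold for Cdh2, but 9.28-fold for Zeb2 and 9.40-fold for Twist1.

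**Figure D1:**
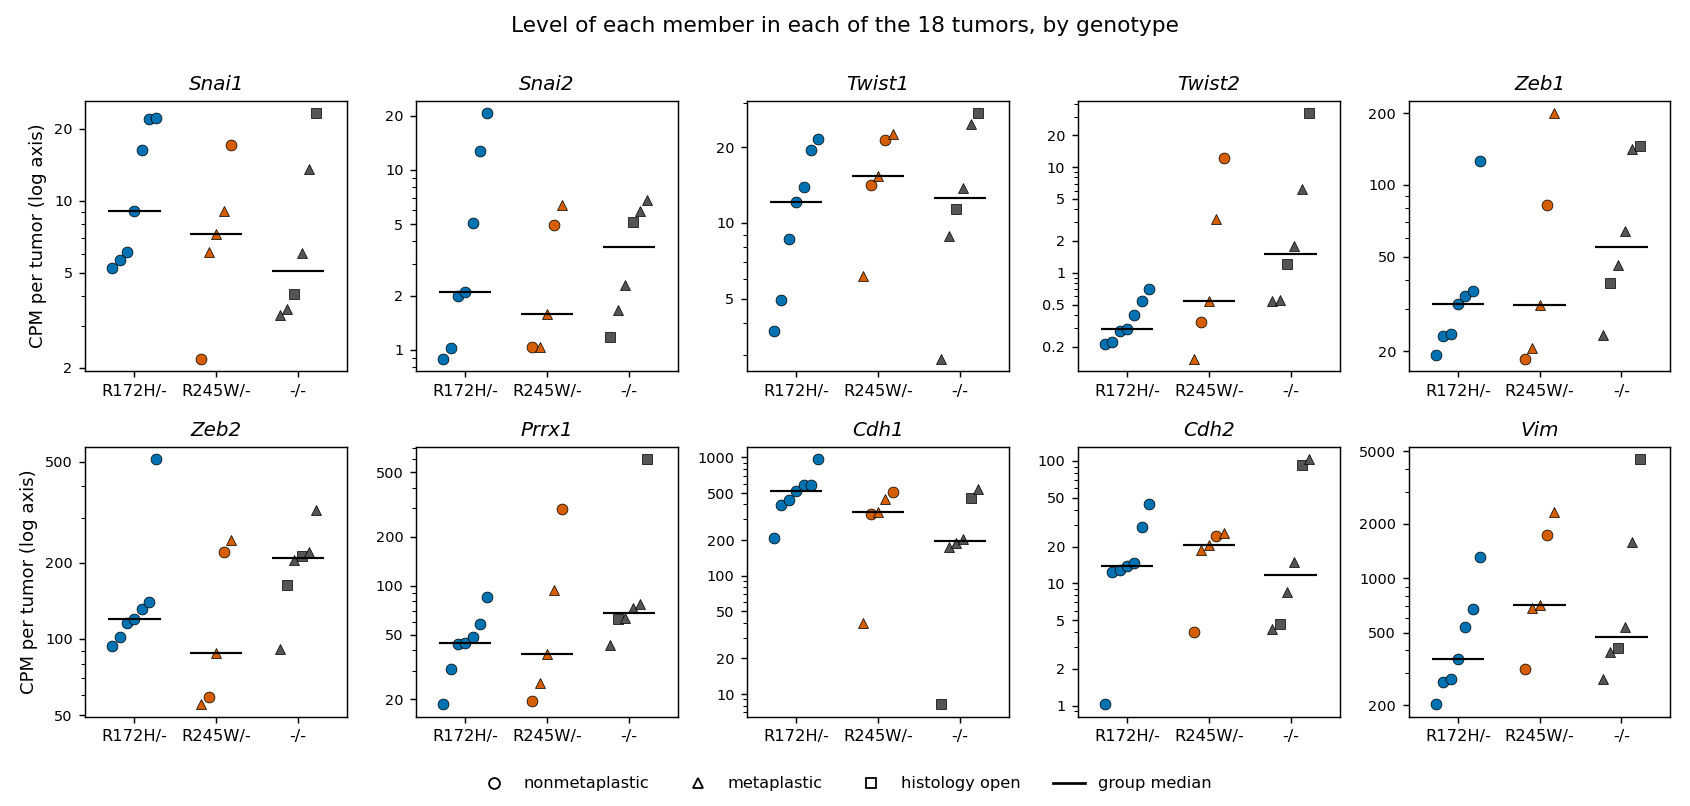
CPM of each of the 10 genes in each tumor, on a log axis, for the 3 genotypes. Circles are nonmetaplastic tumors, triangles metaplastic tumors, squares the 2 tumors of open histology, and bars the group medians; Twist2 stays below 1 CPM in all MaP R172H/- tumors and reaches 32.3 CPM in a MaP -/- tumor.

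The first question was whether the R172H mutant tumors differ in these genes from tumors without p53. Twist2 was the single member called: it was lower in the MaP R172H/- tumors. Twist2 encodes a helix-loop-helix factor of dermal and other mesenchyme. The MaP R172H/- tumors held 0.211 CPM at the lowest, 0.292 at the median and 0.702 at the highest, which are 5 to 21 counts. The MaP -/- tumors held 0.541, 1.51 and 32.3 CPM. All 7 MaP R172H/- tumors lay below the MaP -/- median, but the ranges overlap, because YZ3 and YZ4 lay above JM663-T1, and YZ4 also above JM833-T2. The fitted log2 fold change was -4.23 (standard error, SE, 0.957, FDR = 0.0157, edgeR). Without JM779-T1, the tumor at 32.3 CPM, it was -2.44 (FDR = 0.0274, edgeR). By this call 1 of 10 members fell and none rose, while 4.73% of the 20954 genes tested were lower, 3.67% were higher, and 8.4% were called in either direction. The 1 of 10 members called is near that last share. The 9 fibroblast markers had a median log2 fold change of -1.19 in the same comparison, and the 8 leukocyte markers one of -1.14. The sum of the fibroblast markers (Pdgfra, Dpt, Pi16, Lum, Dcn, Col14a1, Clec3b, Mfap5 and Fap) lay between 190.0 and 742.1 CPM in the R172H group, against 187.4 to 1929 CPM in MaP -/- tumors. Among MaP -/- tumors this sum was highest in JM833-T1 (1929 CPM), JM779-T1 (1499 CPM) and JM663-T2 (1242 CPM). These tumors also held the most Twist2 of their group, though in another order, at 1.80, 32.3 and 6.18 CPM. In the R172H group YZ4 was highest in both, at 742.1 CPM of fibroblast markers and 0.702 CPM of Twist2. None of the 9 fibroblast markers was at 0 in any tumor, and Fap, Pdgfra and Lum were themselves called lower. Whether fibroblast content sets the Twist2 difference was not tested, and in whole tumors fewer cells of a type and less RNA per cell cannot be told apart.

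The other transcription factors did not pass the test between MaP R172H/- and MaP -/- tumors. Prrx1 came nearest. Its levels were 18.6, 44.5 and 85.7 CPM at the lowest, median and highest of the MaP R172H/- tumors and 42.9, 67.7 and 603.0 CPM in MaP -/- tumors (log2 fold change -1.73, SE 0.613, FDR = 0.0983, edgeR). The value of 603.0 CPM belongs to JM779-T1, and leaving that tumor out gave -0.45. Zeb1, the ZEB factor most often tied to loss of Cdh1, lay between 19.2 and 126.3 CPM around a median of 31.6 in the R172H group. In MaP -/- tumors it ranged from 23.4 to 145.9 CPM around a median of 55.1. The fitted log2 fold change was -0.87 (SE 0.529, FDR = 0.328, edgeR). A single MaP R172H/- tumor, YZ7, held the 126.3 CPM, and the other 6 reached 35.7 CPM. Without YZ7 the log2 fold change of Zeb1 was -1.49 (FDR = 0.0440, edgeR), so that 2 members were called lower. Zeb2, its paralog, had medians of 119.4 and 209.2 CPM in the mutant and null tumors (log2 fold change -0.23), with YZ7 again highest at 512.5 CPM. Leaving YZ7 out gave -0.83 for Zeb2 (FDR = 0.0548, edgeR). YZ7 also had the highest sum of pericyte and smooth muscle markers, 1048 CPM against 241.9 to 493.5 CPM in the other MaP R172H/- tumors, and the part of these cells in its Zeb1, Zeb2 and Vim was not tested. The SNAI factors and Twist1 overlapped widely, although all 7 MaP R172H/- tumors lay above the MaP -/- median of Snai1. Snai1 had medians of 9.10 and 5.07 CPM (log2 fold change 0.44, and 0.998 without JM779-T1), Snai2 of 2.08 and 3.71 CPM (0.73) and Twist1 of 12.1 and 12.6 CPM (-0.32) in MaP R172H/- and MaP -/- tumors. For Snai2 the medians and the fitted fold change differ in sign, since the fit follows group means and YZ4 (20.7 CPM) and YZ7 (12.7 CPM) raise the mean of the MaP R172H/- tumors. Without YZ4 it was 0.021.

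Neither cadherin passed the same test, and neither did vimentin. Cdh1 was at 206.9, 519.5 and 972.0 CPM at the lowest, median and highest of the MaP R172H/- tumors and at 8.18, 197.5 and 542.3 CPM in MaP -/- tumors. All 7 MaP R172H/- tumors lay above the median of the MaP -/- tumors, while the highest MaP -/- tumors, JM663-T1 and JM836-T1, lay within their range. The fitted log2 fold change was 0.99 (SE 0.607, FDR = 0.334, edgeR). Cdh2 ranged from 1.03 to 44.2 CPM in the mutant and from 4.23 to 104.0 CPM in the null tumors (log2 fold change -1.06, FDR = 0.468, edgeR). Its median was higher in the mutant tumors, 13.9 against 11.7 CPM, whereas the fit follows group means, which hold JM663-T2 (104.0 CPM) and JM779-T1 (91.9 CPM) on the null side. Without JM663-T2 it was -0.46 and without JM779-T1 -0.58. Vim had medians of 360.7 CPM in MaP R172H/- and 476.9 CPM in MaP -/- tumors, with 1305 CPM in YZ7 and 4551 CPM in JM779-T1 as the highest values. Its log2 fold change was -1.33 (SE 0.680, FDR = 0.247, edgeR) and -0.31 without JM779-T1.

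In the second comparison, of MaP R245W/- with MaP -/- tumors read on the same instrument, no member passed the test. None of 10 was called, and 0.0% of 21452 genes tested were (edgeR), with 2527 genes (11.8%) at an unadjusted p below 0.05, none of them a member. DESeq2 called 424 genes and no member. Within the 5 MaP R245W/- tumors the members varied widely. Cdh1 was at 39.8 CPM in JM1233, 331.1 in JM1126, 343.3 in RM0014, 446.5 in JM1133 and 511.3 in JM1564. Zeb1 was at 200 CPM in JM1233 and 82.5 in JM1126, but at 31.3 in RM0014, 20.7 in JM1133 and 18.6 in JM1564. JM1233, with the least E-cadherin, thus had the most Zeb1, and JM1564 had the most E-cadherin and the least Zeb1. Vim was at 2319 CPM in JM1233 and 1731 in JM1126, against 714.2 in JM1133, 683.9 in RM0014 and 316.4 in JM1564. Twist2 was at 12.2 CPM in JM1126 and 3.24 in JM1233, against 0.543 in RM0014, 0.342 in JM1564 and 0.153 in JM1133. Prrx1 was highest in these 2 tumors too, at 294.7 CPM in JM1126 and 93.8 CPM in JM1233. JM1126, the sarcoma, therefore had the most Twist2 and Prrx1 of its group while its Cdh1 stayed close to that of RM0014. The fitted log2 fold changes against MaP -/- tumors lay between -1.09 for Twist2 and 0.31 for Cdh1. The 2 tumors with high Twist2 also had the most fibroblast markers of the group, 1940 CPM in JM1126 and 1247 CPM in JM1233 against 110.8 to 384.2 CPM in the others. JM1233 also had 969.6 CPM of skeletal muscle markers and 1684 CPM of leukocyte markers, the most of all tumors. The part of these cells in the member values was not tested.

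Compared directly with each other, the mutants did not differ in any member by edgeR, while 9.4% of 22481 genes tested were called, 2.91% higher and 6.49% lower. Twist2 had the largest difference, at -3.12 on the log2 scale (SE 1.08, FDR = 0.0785, edgeR) in MaP R172H/- against MaP R245W/- tumors. Only JM1126 and JM1233 lay above the MaP R172H/- range, and without JM1126 the log2 fold change was -1.5. Twist2 was called by DESeq2 (adjusted p = 0.0181) and, with edgeR, when JM779-T1 of the third group was left out of the fit (FDR = 0.0364). Vim had a log2 fold change of -1.16 (FDR = 0.303, edgeR), Snai2 of 1.08 (FDR = 0.421, edgeR) and Prrx1 of -1.02 (FDR = 0.387, edgeR). Zeb2 was above the MaP R245W/- median of 87.7 CPM in all 7 MaP R172H/- tumors, but JM1233 and JM1126 lay higher than most of them, and its log2 fold change was 0.38 (FDR = 0.672, edgeR). For Cdh1 it was 0.63, for Cdh2 -0.05 and for Twist1 -0.43. These comparisons share the MaP R172H/- and MaP -/- tumors, so their values are not independent.

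**Figure D2:**
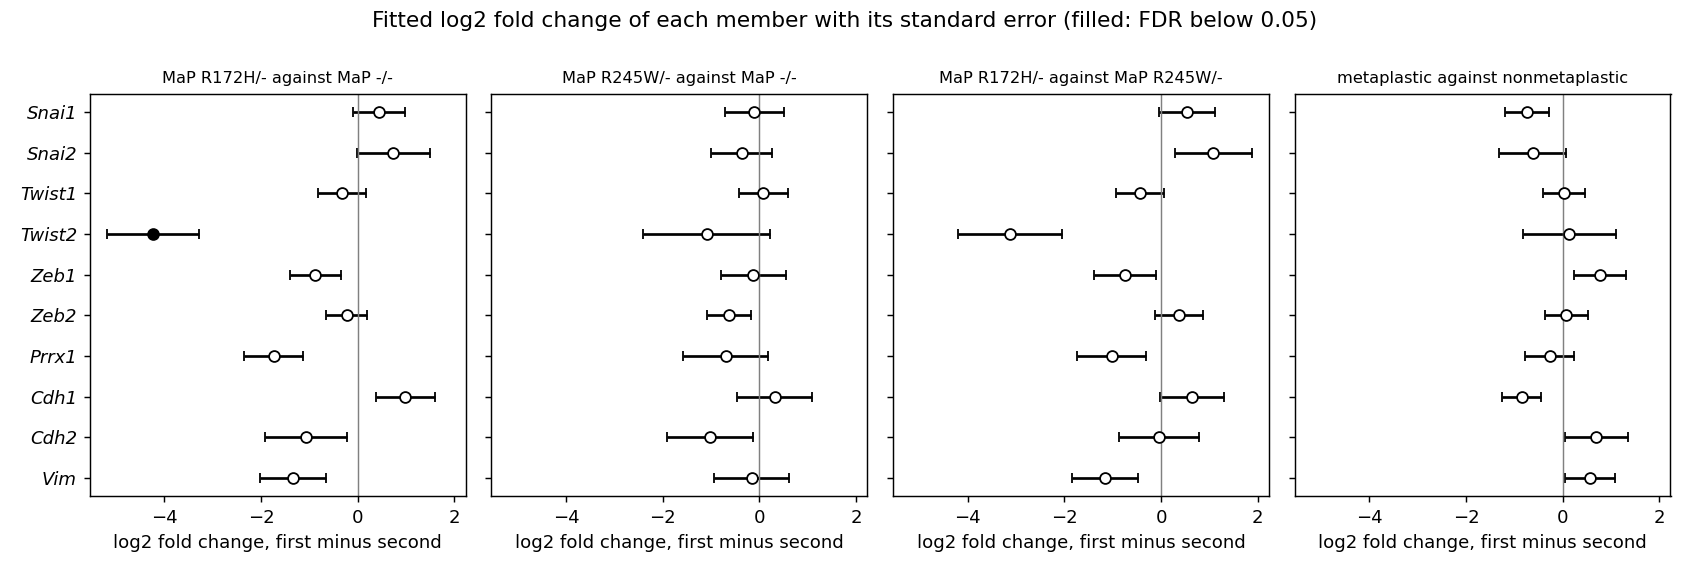
Fitted log2 fold change of each of the 10 genes with its SE in the 4 comparisons, first group minus second. The filled point is the single call at an FDR below 0.05, Twist2 at -4.23 in MaP R172H/- against MaP -/- tumors; the open points did not pass.

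The comparison by histology asked whether metaplastic tumors, which include the sarcomatoid carcinomas, carry more of the mesenchymal and less of the epithelial members. No member passed the test between the 7 metaplastic and 9 nonmetaplastic tumors. None of 10 was called against 0.0% of 21011 genes tested (edgeR), with 3101 genes (14.8%) at an unadjusted p below 0.05 and none of them a member, and DESeq2 called 752 genes and no member. Cdh1 had the smallest p. It was at 39.8, 204.3 and 542.3 CPM at the lowest, median and highest of the metaplastic tumors and at 206.9, 511.3 and 972.0 CPM in nonmetaplastic tumors. Of the 7 metaplastic tumors, 6 lay below the nonmetaplastic median and JM663-T1 lay above it. The fitted log2 fold change was -0.85 (SE 0.402, FDR = 0.340, edgeR), and it stayed negative, between -1.10 and -0.63, with each tumor left out in turn. Among NovaSeq tumors alone it was -0.60 (7 against 2 tumors, FDR = 0.894, edgeR). Zeb1 ran the other way, with medians of 46.1 CPM in metaplastic and 31.6 CPM in nonmetaplastic tumors (log2 fold change 0.78, SE 0.534, FDR = 0.521, edgeR). The metaplastic tumors were themselves divided, since JM1233 and JM663-T2 held 200 and 141.2 CPM of Zeb1 while JM1133, JM663-T1 and RM0014 held 20.7, 23.4 and 31.3 CPM.

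Of the remaining members, Snai1 kept its direction over the settings tried, while each of the others turned in at least 1 setting. Vim had medians of 683.9 CPM in metaplastic and 360.7 CPM in nonmetaplastic tumors, and 6 of 7 metaplastic tumors lay above the nonmetaplastic median, with a log2 fold change of 0.56 (FDR = 0.651, edgeR). Among NovaSeq tumors alone it was -0.14, with JM1126 at 1731 CPM as 1 of the 2 nonmetaplastic tumors. Cdh2 had medians of 18.8 and 13.9 CPM and a log2 fold change of 0.69 (FDR = 0.656, edgeR), with JM663-T2 at 104.0 CPM and the next metaplastic tumor at 26.0 CPM. Without JM663-T2 it was -0.18. Twist2 depended on the sarcoma. Its log2 fold change was 0.14 with JM1126 among the nonmetaplastic tumors, 2.32 (FDR = 0.0637, edgeR) without it and -1.75 among NovaSeq tumors alone. Prrx1, at 294.7 CPM in the sarcoma, moved from -0.27 to 0.45 when the sarcoma was left out. Snai1 had medians of 6.11 CPM in metaplastic and 9.10 CPM in nonmetaplastic tumors and a log2 fold change of -0.74 (FDR = 0.463, edgeR), which stayed between -0.999 and -0.55 with each tumor left out. Snai2 had a log2 fold change of -0.62 (FDR = 0.717, edgeR) but a higher median in metaplastic tumors, 2.28 against 2.08 CPM, and 0.0019 without YZ4. Twist1 had medians of 13.8 and 13.9 CPM (log2 fold change 0.03) and Zeb2 of 205.5 and 119.4 CPM (0.08). Assigning the 2 open tumors by their titles or by the tumors marked as sequenced called no member. It did set the sign of Vim, 0.56 without them but -0.21 when JM779-T1 counted as nonmetaplastic and JM836-T1 as metaplastic. Fibroblast markers had medians of 791.9 CPM in metaplastic and 245.8 CPM in nonmetaplastic tumors, and leukocyte markers 586.0 and 428.7 CPM. Both ranges overlapped between the groups, and the part of these cells in the member values was not tested.

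Relations of the members with E-cadherin across tumors were described next, whatever the genotype and histology. Relations were computed on log2 CPM with 1 value a mouse (n = 16), and permutation p-values (two-sided, 100000 resamples) were adjusted over 22480 genes. Zeb1 and Vim fell as Cdh1 rose. For Zeb1, Pearson's r was -0.81 (permutation p = 7e-05, FDR = 0.0109) and Spearman's rho was -0.81 (permutation p = 0.00026, FDR = 0.0265). Without JM1233 and JM779, the mice farthest from the median of Zeb1, r was -0.78. Within the 7 HiSeq mice r was -0.89 and within the 9 NovaSeq mice -0.81, so the relation had the same sign on both instruments and, for the HiSeq mice, within a single genotype and histology. For Vim, r was -0.85 (permutation p = 2e-05, FDR = 0.00624) and rho -0.73 (permutation p = 0.00188, FDR = 0.0564). It was -0.64 without JM1233 and JM779, -0.81 within HiSeq mice and -0.85 within NovaSeq mice. Of all 22480 genes, 3.93% passed an FDR of 0.05 with Cdh1 by Pearson's r, 579 positive and 305 negative. Only 60 genes had a lower r than Zeb1 and 23 a lower r than Vim. Epithelial content moved with Cdh1 as well. The epithelial marker Epcam had r of 0.89 with Cdh1 (permutation p = 3e-05, FDR = 0.0071), and the summed epithelial markers were lowest in JM779-T1, YZ7 and JM1233, which are among the tumors with the most Zeb1. The part of epithelial content in these relations and in that of Mir200a was not tested.

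The other members were related less closely to Cdh1, and none passed the FDR. Twist2 had r of -0.75 (permutation p = 0.006, FDR = 0.0867) and rho of -0.57 (permutation p = 0.0234, FDR = 0.163), with r of 0.08 within HiSeq mice, whose tumors held 5 to 21 counts of Twist2. Prrx1 had r of -0.73 (permutation p = 0.00688, FDR = 0.0931) and rho of -0.58 (permutation p = 0.0199, FDR = 0.152). Without JM779 and JM1126, r was -0.66 for Twist2 and -0.58 for Prrx1. Cdh2 had r of -0.58 (permutation p = 0.0252, FDR = 0.176) and rho of -0.68 (permutation p = 0.0047, FDR = 0.0800), and r of -0.22 (rho -0.52) without JM779 and YZ11, so its r over all mice rests on them. Within HiSeq and NovaSeq mice its r was -0.80 and -0.62. Zeb2 had r of -0.49 (permutation p = 0.0627, FDR = 0.274) and rho of -0.68 (permutation p = 0.00486, FDR = 0.0806). Snai2 had r of -0.43 (permutation p = 0.0930, FDR = 0.331) and rho of -0.66 (permutation p = 0.00558, FDR = 0.0850). Without 2 mice, r was -0.59 for Zeb2 and -0.64 for Snai2. Snai1 and Twist1 had the values nearest to or above 0. Snai1 had r of -0.24 (permutation p = 0.385, FDR = 0.654) and rho of -0.05 (permutation p = 0.847, FDR = 0.928), with r of 0.23 without JM1564 and JM779, 0.13 within HiSeq and -0.56 within NovaSeq mice. Twist1 had r of 0.31 (permutation p = 0.239, FDR = 0.522) and rho of 0.36 (permutation p = 0.171, FDR = 0.417), with r of 0.41 without YZ4 and YZ7. Twist1 was thus the single member other than Cdh1 whose level was not lower where Cdh1 was higher in any of these fits, and this difference from the other members was not tested.

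**Figure D3:**
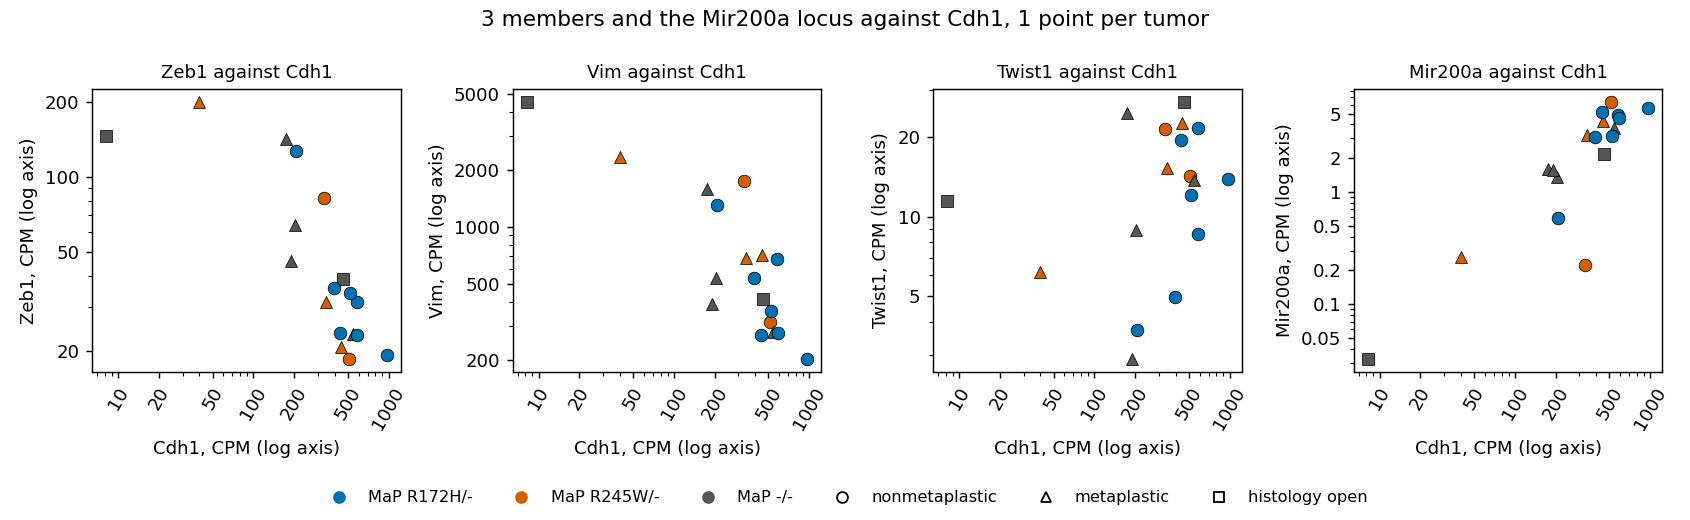
CPM of Zeb1, Vim, Twist1 and the Mir200a locus against CPM of Cdh1, both on log axes, 1 point per tumor, coloured by genotype and shaped by histology. Zeb1 (r = -0.81 over 16 mice) and Vim (r = -0.85) fall as Cdh1 rises, Mir200a rises with it (r = 0.86), and Twist1 (r = 0.31) does not fall.

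Some members also moved together. Over the 18 tumors, as a description, Zeb1 and Zeb2 had a Spearman rho of 0.88. Zeb1 and Prrx1 as well as Zeb1 and Vim had 0.76, Twist2 and Prrx1 also had 0.76, and Cdh2 and Vim had 0.71. Twist1 and Snai2 had the most negative value that does not involve Cdh1, -0.59. Snai1 had no rho above 0.50 with any member, its highest being 0.49 with Cdh2.

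The pattern was seen within mouse JM663 but not within mouse JM833. JM663-T1 and JM663-T2 came from the same MaP -/- mouse, and both were sarcomatoid carcinomas. E-cadherin was 542.3 CPM in T1 and 175.0 CPM in T2, a 3.10-fold difference. Zeb1 was 23.4 and 141.2 CPM, 6.03-fold higher in T2. Vim was 277.9 and 1585 CPM (5.70-fold), Cdh2 14.9 and 104.0 CPM (6.97-fold) and Twist2 0.541 and 6.18 CPM (11.4-fold). The other members were higher in T2 by 1.23-fold for Prrx1 to 3.55-fold for Snai2. The tumors of mouse JM833, both poorly differentiated carcinomas, were closer to each other. Cdh1 was 204.3 and 190.6 CPM, Zeb1 64.0 and 46.1 CPM and Vim 539.4 and 393.5 CPM in T1 and T2. Zeb1 and Vim were thus higher in the tumor with slightly more Cdh1. The largest difference was that of Twist2, 3.26-fold higher in T1. With 1 library a tumor, these differences have no replicate check. Fibroblast markers were 187.4 CPM in JM663-T1 and 1242 CPM in JM663-T2, and 1929 and 791.9 CPM in JM833-T1 and JM833-T2. The part of fibroblasts in these differences was not tested.

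**Figure D4:**
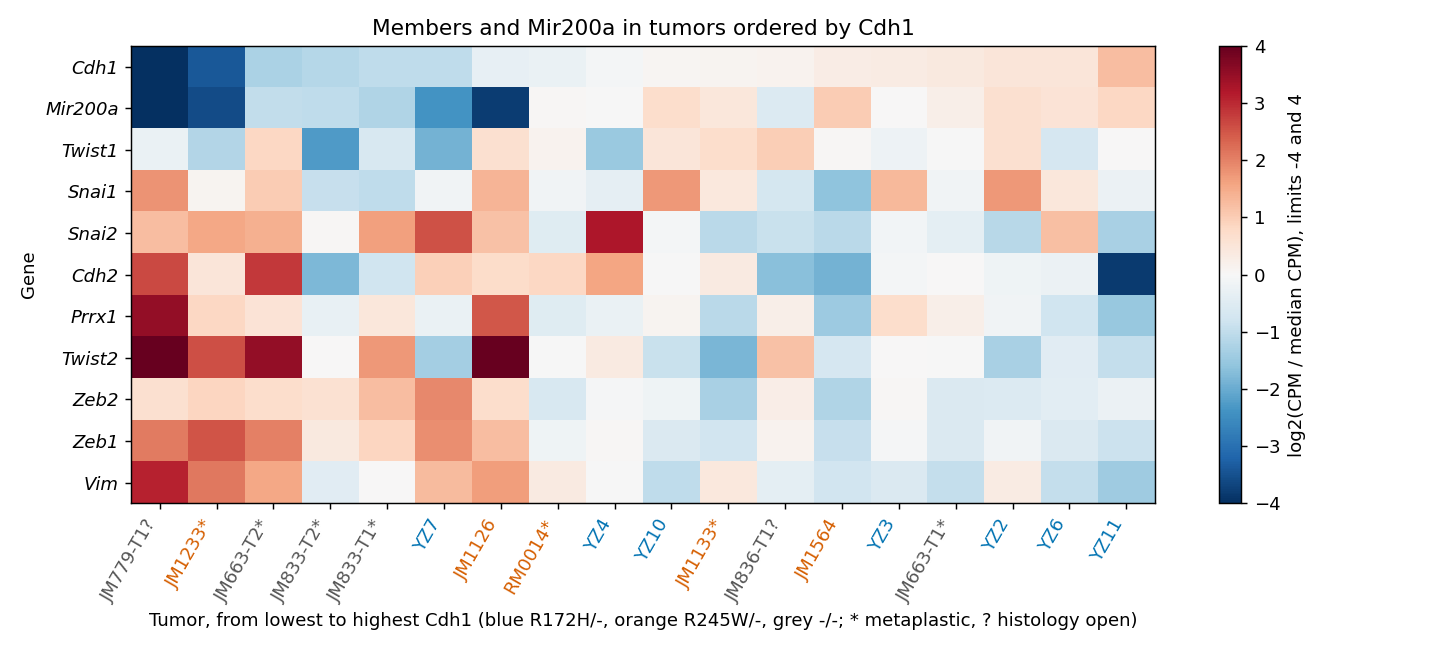
Colour shows log2 of CPM over the gene's median CPM of the 18 tumors, limited to -4 and 4, with tumors on the horizontal axis from the lowest to the highest Cdh1 and genes on the vertical axis. Mir200a is low and Zeb1, Zeb2 and Vim mostly high in the tumors on the left, from JM779-T1 (8.18 CPM of Cdh1) to JM1126 (331.1 CPM), while Twist1 and Snai1 show no such order.

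The loci of the miR-200 family were counted too, with the limit that total RNA libraries do not hold mature microRNAs and that counts at a hairpin locus come from longer transcripts. Mir200a (chromosome 4, 156139353 to 156139442, minus strand) was the single hairpin locus of the family with enough counts to be tested, with 1 count in JM779-T1 and up to 205 in JM1564. It was at 0.0326 CPM in JM779-T1, 0.223 in JM1126, 0.265 in JM1233 and 0.592 in YZ7, and at 1.35 to 6.38 CPM in the other tumors. These 4 tumors are among the 5 with the highest Zeb1. With Cdh1, r was 0.86 (permutation p = 6e-05, FDR = 0.0105) and rho 0.81 (permutation p = 0.00029, FDR = 0.0272) over 16 mice, and r was 0.91 without JM779 and JM1126. Within HiSeq and NovaSeq mice r was 0.87 and 0.83. No comparison called Mir200a, with log2 fold changes of 1.13 in MaP R172H/- against MaP -/- (FDR = 0.298, edgeR) and -0.69 in metaplastic against nonmetaplastic tumors (FDR = 0.616, edgeR). Mir141 reached 29 counts in a NovaSeq tumor and had 1 count in a single HiSeq tumor, so it could not be compared across instruments. Mir200b reached 11 counts and Mir200c 2, and Mir429 and Mir205 had none in any tumor. The host transcript Mir205hg had a log2 fold change of 1.3 in MaP R172H/- against MaP -/- tumors (FDR = 0.409, edgeR).

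The wider circuit around the members was described from lists of known genes. In MaP R172H/- against MaP -/- tumors, none of 13 epithelial transcription and splicing factors was called, but all 13 had log2 fold changes above 0, with a median of 0.86 beside 0.00 over all genes tested. They include Grhl2 (0.73), Ovol1 (1.17) and Esrp2 (0.98), which are known to hold cells in the epithelial state, and Foxa1, a luminal pioneer factor. Foxa1 was called higher in MaP R172H/- than in MaP R245W/- tumors (log2 fold change 4.07, FDR = 0.0305, edgeR). It was 1 of 13 called there, where 2.91% of 22481 genes tested were called higher. Of 18 epithelial junction and keratin genes none was called, all were above 0, and the median was 1.15. In metaplastic against nonmetaplastic tumors none of 13 and none of 18 was above 0, the medians were -0.46 and -0.64, beside -0.03 over all genes tested, and no gene was called. This comparison shares most of its tumors with the former, since the 7 MaP R172H/- tumors are among the 9 nonmetaplastic tumors and 4 of 7 metaplastic tumors are MaP -/-, so the opposite signs are not independent. The junction genes with the largest differences there were the claudins Cldn3 (-1.81, FDR = 0.230, edgeR) and Cldn4 (-1.60, FDR = 0.418, edgeR). All 10 partners of cadherins at the adherens junction were above 0 in MaP R172H/- against MaP -/- tumors, with a median of 0.65, and below 0 in metaplastic tumors, with a median of -0.37. None was called in either, and the largest differences in metaplastic tumors were those of the nectins Nectin4 (-0.94) and Nectin2 (-0.79). In MaP R245W/- against MaP -/- tumors, 9 of 13 factors, 17 of 18 junction and keratin genes and 8 of 10 partners were also above 0. Their medians were 0.32, 0.77 and 0.31, beside 0.02 over all genes tested, and no gene was called. Both comparisons with MaP -/- tumors share those tumors, so their values are not independent.

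Among 15 tested EMT-linked transcription factors that are no members, 1 was called, in MaP R172H/- against MaP -/- tumors. In that comparison 8.4% of 20954 genes tested were called in either direction. The 1 of 15 here and the 1 of 10 other cadherins below are near that share. Tcf3, an E protein that can dimerise with TWIST factors, was higher in MaP R172H/- than in MaP -/- tumors, at 86.9 against 47.9 CPM on average (log2 fold change 0.83, SE 0.221, FDR = 0.0331, edgeR). In the TGF-beta pathway, the best known inducer of EMT, the ligand Tgfb1 (log2 fold change 0.59, FDR = 0.0458, edgeR) and the SMAD corepressor Ski (0.63, FDR = 0.0318, edgeR) were higher in MaP R172H/- tumors. The other 10 of 12 genes did not pass. Of 10 other cadherins tested, Cdh17, a cadherin of intestinal epithelium, was lower, at 0.236 against 1.78 CPM (log2 fold change -2.94, FDR = 0.0483, edgeR). Mesenchymal matrix and cytoskeleton genes had a median of -0.08 over 18 genes in this comparison, with none called. Against MaP R245W/- tumors the median was -1.03, and the fibrillar collagen gene Col5a2 was called lower (log2 fold change -1.63, FDR = 0.0492, edgeR). That is 1 of 18 genes, near the 6.49% of 22481 genes tested that were called lower there. In metaplastic against nonmetaplastic tumors this list had 8 of 18 genes above 0, a median of -0.12 and none called. In MaP R245W/- against MaP -/- tumors, read on the same instrument, it had 16 of 18 genes above 0. The median there was 0.56, beside 0.02 over all genes tested, and none was called.

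Markers of other cells of the tumor moved with the same comparisons. In MaP R172H/- against MaP -/- tumors 3 of 9 fibroblast genes (Fap, Pdgfra and Lum), 1 of 7 endothelial genes (Pecam1) and 2 of 8 leukocyte genes (Ptprc and Adgre1) were called lower, and no pericyte, adipocyte, skeletal muscle or mammary epithelial gene was called. Of all 20954 genes tested in that comparison, 4.73% were called lower. Against MaP R245W/- tumors Lum, the pericyte and muscle gene Des, Adgre1 and all 5 skeletal muscle genes tested (Mylpf, Tnnt3, Acta1, Myh1 and Myh4) were lower, beside 6.49% of 22481 genes tested. In metaplastic against nonmetaplastic tumors no marker was called. The highest log2 fold changes were those of the B cell gene Ms4a1 (4.47, FDR = 0.150, edgeR) and the muscle gene Acta1 (4.43, FDR = 0.194, edgeR). The adipocyte genes Adipoq (3.73, FDR = 0.299, edgeR) and Fabp4 (3.42, FDR = 0.171, edgeR) were also higher in value, and Krt5 (-2.87) and Trp63 (-1.52) were the lowest of the mammary epithelial genes. Adipocyte markers summed to 3104 CPM in JM833-T1 and to 318.8 CPM or less in every other tumor.

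The genes whose levels most resembled those of Cdh1 over the 18 tumors were St14 (Spearman rho 0.92), a membrane serine protease of epithelia, Map3k21 (0.91) and Nectin4 (0.90), an adhesion molecule of adherens junctions. For Zeb1 they were Zeb1os1 (0.95), Bnc2 (0.95), a zinc finger factor, and Stab1 (0.95), a scavenger receptor of macrophages and endothelium. Zeb1os1 is the antisense transcript of Zeb1. The strand setting of the counting is not given in the sources used here, so reads of Zeb1 and Zeb1os1 cannot be told apart.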

How the data were processed

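Total RNA of 18 tumors was depleted of ribosomal RNA and sequenced as stranded pairs. The authors' pipeline was STAR 2.7.10b (alignment, GRCm39) followed by RSEM 1.3.3 (counting), and the deposited values are counts rounded to whole numbers, without normalization. Of 57126 genes, 56620 matched GENCODE M39 by identifier. The genotype comparisons with MaP -/- tumors and the histology comparison each had a fit of their own, and the mutants were compared in a fit of all 18 tumors. All used edgeR 4.0.16 in R 4.3.3 (TMM, filterByExpr, quasi-likelihood test), with calls at a Benjamini-Hochberg FDR below 0.05 over all genes tested. Log2 CPM used a prior count of 2. Tumors of 1 mouse were averaged for correlations. Levels per kilobase used the CCDS transcript with the lowest number. DESeq2 1.42.0 and other settings were alternatives. The tests were checked on simulated data. Samples are separate tumors, 2 mice gave 2 tumors each, and p-values measure the spread between these tumors. The text names all 10 members, the called genes of each list or otherwise the 2 with the largest histology difference, and the 3 genes closest to Cdh1 and Zeb1. Grhl2, Ovol1, Esrp2, Ms4a1 and Acta1 were named after their values were seen. Members and lists were chosen with earlier results of these data known.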

Additional observations from a re-analysis of the deposited data

Results flagged for a closer look

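The highest and lowest tumor of each group of 4 to 10 tumors were compared with the rest of their group by Dixon's test, for 10 genes in 5 groups. Of 50 groups tested, 13 held a tumor that stood apart, in each case the highest tumor, and the groups share tumors. The test was run on CPM and not on log2 CPM. Its nominal rate of about 1 in 20 holds for normally distributed values, so the count of 13 cannot be compared with chance. In JM1126, the sarcoma, Twist2 (12.2 CPM, next 3.24 CPM in the MaP R245W/- group and 0.702 CPM in the nonmetaplastic group) and Prrx1 (294.7 CPM, next 93.8 and 85.7 CPM) were highest. In JM779-T1, Twist2 (32.3 CPM, next 6.18), Prrx1 (603.0 CPM, next 77.5) and Vim (4551 CPM, next 1585) were highest among MaP -/- tumors. In YZ7, Zeb1 (126.3 CPM, next 35.7), Zeb2 (512.5 CPM, next 140.1, and next 221.0 among nonmetaplastic tumors) and Vim (1305 CPM, next 678.1) were highest among MaP R172H/- tumors. In YZ11, Cdh1 (972.0 CPM, next 586.3) was highest among nonmetaplastic tumors, and in JM663-T2, Cdh2 (104.0 CPM, next 26.0) among metaplastic tumors. Snai1, Snai2 and Twist1 were flagged in no group.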

How the results depend on the processing

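Of 296 member log2 fold changes under other settings, 275 kept their direction and side of the threshold, as did 535 of 580 with 1 tumor left out. With the numbers of called genes and members included, which have no direction and were compared by size, 333 of 372 and 641 of 696 values stayed alike. In MaP R172H/- against MaP -/- tumors, genes called over the whole table were 3432 by DESeq2, 1126 with tumors of 1 mouse summed, 1051 and 287 beyond a log2 fold change of 1 and 2, and 1067 to 1866 with 1 tumor left out (1067 without JM663-T2). Members called were 0 with at least 10 counts in every tumor, where Twist2 could not be tested, and 1 to 2 with 1 tumor left out (2 without YZ7). In MaP R245W/- against MaP -/- tumors DESeq2 called 424 genes, the fit of 18 tumors 2, and fits with 1 tumor left out 0 to 3. With mouse sums Twist1 turned to -0.016. In MaP R172H/- against MaP R245W/- tumors DESeq2 called 1 member and 3703 genes, the stricter count minimum 1401 genes, the fold limits 1392 and 526, and fits with 1 tumor left out 0 to 1 member and 1525 to 2362 genes. In metaplastic against nonmetaplastic tumors DESeq2 called 752 genes, at least 1 count in any tumor 2, at least 10 counts in every tumor 2, the histology of the tumor marked as sequenced 3, instrument as a term 2, no sarcoma 428, and fits with 1 tumor left out 0 to 428 (428 without JM1126, 90 without JM1564).

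Log2 fold changes that turned by histology were Zeb2 with mouse sums (-0.023). With the open tumors placed by title they were Prrx1 (0.85) and Twist1 (-0.13), and by the sequenced mark Twist2 (-1.38) and Vim (-0.21). With instrument as a term they were Twist2 (-1.75), Vim (-0.14), Twist1 (-0.40) and Snai2 (0.31), and among NovaSeq tumors alone Twist2 (-1.75), Vim (-0.14), Twist1 (-0.40) and Snai2 (0.30). With genotype as a term they were Twist2 (-2.25), Zeb2 (-0.12), Twist1 (-0.27) and Snai2 (0.021). Without the sarcoma Prrx1 turned (0.45) and without mouse JM833 Zeb2 (-0.24). The causes were not tested. With 1 tumor left out, ranges that crossed 0 in MaP R245W/- against MaP -/- tumors were those of Twist2 (-2.74 to 0.65), Prrx1 (-1.82 to 0.54), Vim (-0.59 to 0.82), Snai1 (-0.57 to 0.42), Twist1 (-0.13 to 0.35) and Zeb1 (-1.01 to 0.15). In MaP R172H/- against MaP R245W/- tumors they were Prrx1 (-1.28 to 0.078), Zeb2 (-0.23 to 0.72), Zeb1 (-1.38 to 0.14) and Cdh2 (-0.43 to 0.16). By histology they were Twist2 (-0.57 to 2.32), Prrx1 (-0.40 to 0.45), Zeb2 (-0.12 to 0.53), Twist1 (-0.20 to 0.22), Snai2 (-0.81 to 0.0019) and Cdh2 (-0.18 to 1.02).

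No paired analysis was possible because replicate numbers were given in sample order and tie no tumor of one group to a tumor of another. Depth limits Twist2, with 5 to 21 counts in MaP R172H/- tumors, and the hairpin loci.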
